A study of Sus scrofa with 40 samples.

Results

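The HOXB and HOXD cluster genes described here are HOXB2, HOXB3, HOXB4, HOXB5, HOXB6 and HOXB7 of the HOXB cluster and HOXD1, HOXD3, HOXD4 and HOXD8 of the HOXD cluster, taken by gene name from a count table of 21280 Ensembl genes, so 10 genes of 21280. Messenger RNA was sequenced from 4 cuts of pork of male Chalu black pigs that shared a sire, were raised under the same conditions and received no treatment that separates the groups. The cuts were pork belly (PB), trapezius (TM, the neck and shoulder muscle), hamstring (HM, the hind leg) and longissimus dorsi (LDM, the back muscle beside the spine), with 10 libraries each. No age is given, and the labels name no control cut and do not say that a library number marks a pig, so p-values measure the spread between libraries, which may in part be technical. The question addressed was which of these genes differ among the cuts and between the 6 pairs of cuts.

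HOX genes encode homeodomain transcription factors that give cells their position along the body axis in the embryo. They sit in clusters, and genes at the 3′ end of a cluster are active early and far forward, while genes nearer the 5′ end are active later and farther back. Adult connective tissue and muscle can keep part of this positional pattern. In the embryo the factors act together with TALE homeodomain cofactors (the PBX, MEIS and PKNOX families), and Polycomb and Trithorax complexes hold the clusters silent or active.

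On the coordinates of the deposited table, build Sscrofa11.1, the HOXB cluster spans chromosome 12 from 24784953 to 24950637 on the minus strand, with HOXB2 (24796533 to 24799536), HOXB3 (24804647 to 24806783), HOXB4 (24830453 to 24832534), HOXB5 (24845225 to 24847845), HOXB6 (24849741 to 24852488) and HOXB7 (24861174 to 24864620) in 3′ to 5′ order. The HOXD cluster spans chromosome 15 from 81894121 to 81990807 on the plus strand. There HOXD1 (81987752 to 81990807) is at the 3′ end, followed by HOXD3 (81953834 to 81973816), HOXD4 (81952859 to 81954459) and HOXD8 (81931383 to 81935529). HOXD3 and HOXD4 share 626 bases on the same strand, from 81953834 to 81954459. The sources used here do not say how reads in those bases were counted, so the values of HOXD3 and HOXD4 may share reads. Nor do they say whether counting used strand, and reads of antisense transcripts cannot be told apart from those of the genes.

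Total counts per library ran from 12305913 to 17735722, and a single count was worth 0.0564 to 0.0813 CPM (counts scaled to the library total). A count of 0 in a library allows up to 3 counts, or 0.169 to 0.244 CPM, as counting error only. Skeletal muscle markers were strong in all cuts: 6 of 9 fixed markers have a name in the table and together they held 61528 CPM or more in every library, while the skin keratin KRT1 was at 0 in every library. Compared over the genes that differ among the cuts, 38 of 40 libraries lay nearest to the mean of their own cut, and TM7 and HM9 lay nearest to LDM. PB1 is titled as pork belly while its tissue field names the longissimus, and it was kept in PB by its title. It lay nearest to PB. Each cut mean included the library compared, and the genes were chosen with PB1 counted as PB. Nearness to the own cut is thereby favoured, so it cannot settle the tissue of PB1 or test the other labels. HM6 stood apart in its cell type markers, with the highest HM values for the fibroblast, adipocyte, endothelium, smooth muscle, Schwann and leukocyte lists and the lowest for skeletal muscle. In bulk tissue, fewer cells of a type and less RNA per cell cannot be told apart.

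The members of the HOXB cluster held 3518 of the cluster's 3844 counts and those of the HOXD cluster held 26817 of 32324, and HOXD8 alone held 82.8% of the HOXD members' counts. Beyond the members, HOXB1, HOXB13 and HOXD12 were at 0 in all 40 libraries, which allows up to 0.00501 CPM over all libraries. On the per-length scale (FPKM, fragments scaled by gene length and library total), HOXD8 had the highest mean level of the 10 members in every cut, with 9.81 FPKM in PB, 7.71 in TM, 5.38 in HM and 18.6 in LDM. In LDM the next level was that of HOXD1 at 4.95 FPKM. In TM it was that of HOXB3 at 1.86 FPKM, ahead of HOXB2 at 1.57. HOXB5 had the lowest mean in PB, HM and LDM, at 0.0186, 0.0141 and 0.0345 FPKM, but stood at 0.835 FPKM in TM.

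**Figure D1:**
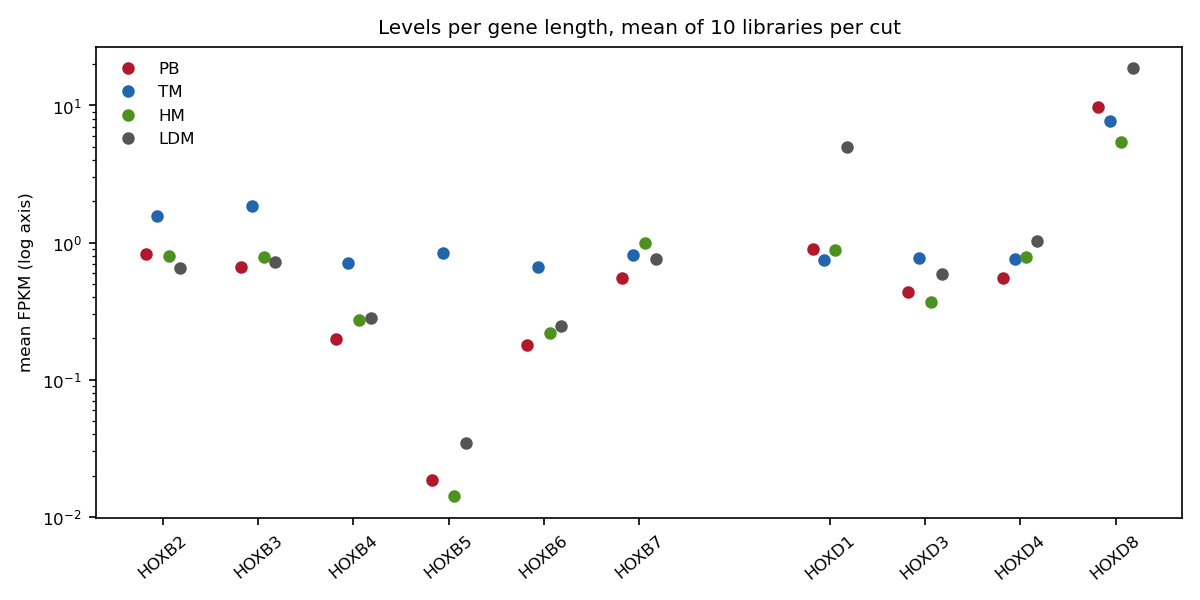
Mean FPKM over 10 libraries of each member, on a log axis, in 3′ to 5′ order of the HOXB and then the HOXD cluster, with 1 point per cut. HOXB2 to HOXB6 have their highest mean in TM, HOXD1, HOXD4 and HOXD8 in LDM, and HOXB5 lies far below the other members outside TM.

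A low-count filter kept 9 of the 10 members. HOXB5 did not pass it and is described apart. HOXB4 and HOXB6 passed it mainly through their TM libraries. With edgeR's quasi-likelihood F test and Benjamini-Hochberg adjustment over all 11713 genes tested, 7 of the 9 tested members differed among the 4 cuts at an adjusted p under 0.05, where 57.2% of all genes tested did. These were HOXB2, HOXB3, HOXB4, HOXB6, HOXD1, HOXD3 and HOXD8; with limma-voom HOXB6 did not pass (adjusted p = 0.207). HOXB7 (adjusted p = 0.472) and HOXD4 (adjusted p = 0.33) did not pass. No passing difference between 2 cuts was free of overlap between their libraries. How often that holds among all genes called was not computed, so it marks no trait of these members.

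**Figure D2:**
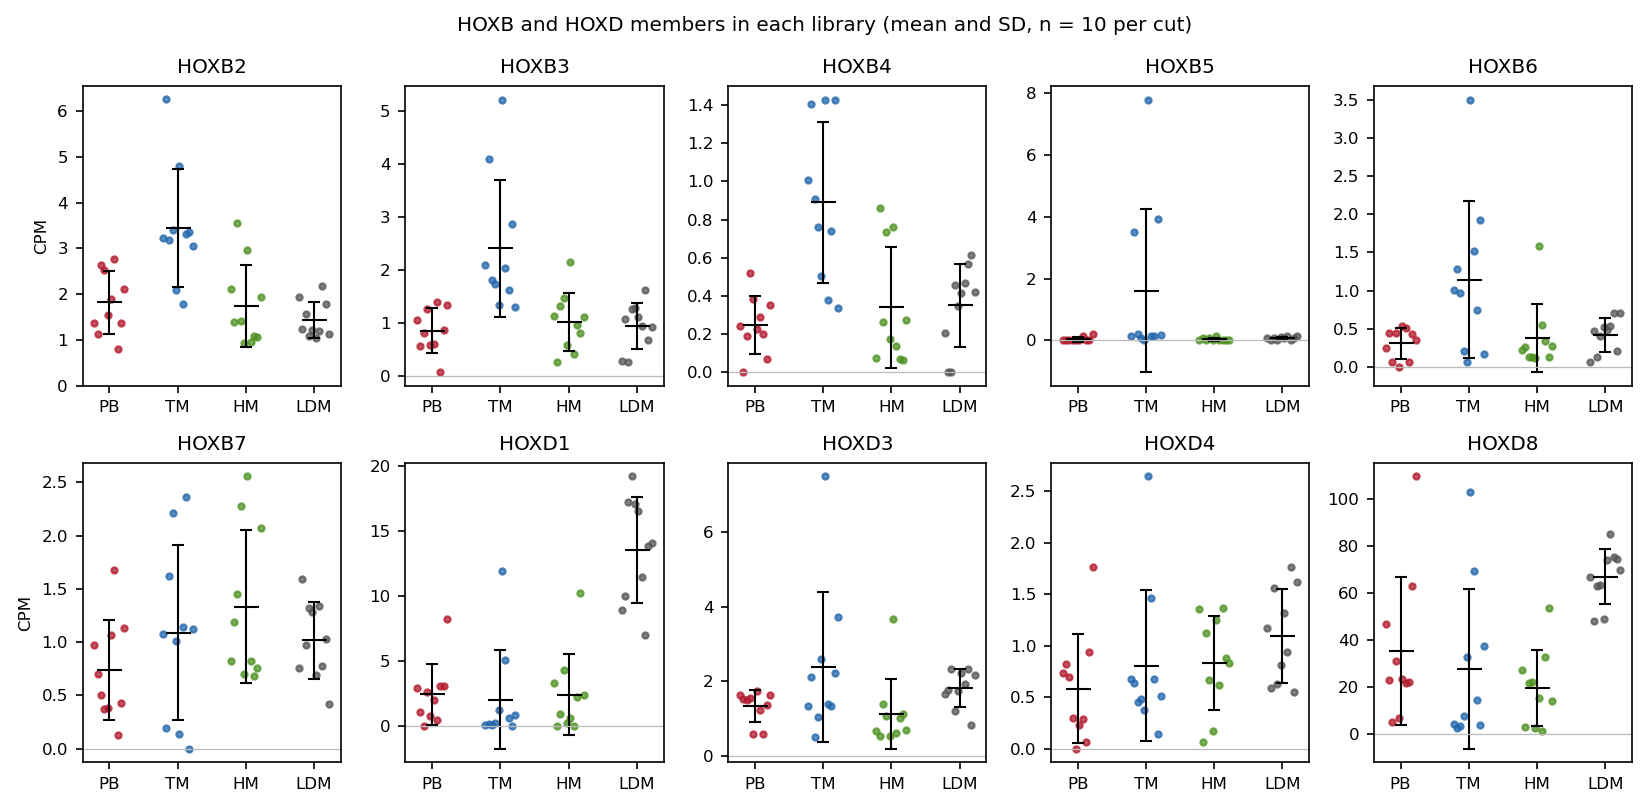
CPM of each member in each of the 40 libraries by cut (1 point per library, bars mean and SD, n = 10 per cut, axes differ between panels). HOXB2 to HOXB6 are higher in TM with wide spread there, while HOXD1 and HOXD8 form a high and compact group in LDM and scatter down to near 0 elsewhere.

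The 3′ genes of the HOXB cluster were highest in the trapezius. HOXB2, which patterns the hindbrain in mouse embryos, ran from 0.799 through a median of 1.72 to 2.77 CPM in PB, from 1.78 through 3.27 to 6.27 CPM in TM, from 0.934 through 1.40 to 3.56 CPM in HM and from 1.04 through 1.23 to 2.19 CPM in LDM. Of the 10 TM libraries, 8 lay above the highest LDM library and 8 above the highest PB library, but only TM2 and TM6 above the highest HM library. HOXB2 was higher in TM than in LDM by 1.14 ± 0.24 on the log2 scale (SE, adjusted p = 0.000541). In PB it fell by 0.69 ± 0.24 on the log2 scale relative to TM (adjusted p = 0.0294), and in TM it was higher than in HM by 0.92 ± 0.24 (adjusted p = 0.0467). Both of these last calls rest on TM2, the highest library: without it the PB difference was -0.55 (adjusted p = 0.0907) and the TM over HM difference 0.78 (adjusted p = 0.146). Without PB1 the PB over TM difference of HOXB2 was -0.64 (adjusted p = 0.0535). PB, HM and LDM did not differ from each other in HOXB2 beyond their spread.

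HOXB3, a neighbour with a shared role in the mouse hindbrain, averaged 0.856 ± 0.417 CPM in PB, 2.41 ± 1.29 in TM, 1.02 ± 0.553 in HM and 0.941 ± 0.435 in LDM (SD, n = 10 each). Its lowest TM library, TM10, had 1.30 CPM, just under the highest PB library at 1.39 and the highest LDM library at 1.62 CPM. HOXB3 was higher in TM than in LDM by 1.20 ± 0.32 on the log2 scale (SE, adjusted p = 0.00559). In PB it fell by 1.26 ± 0.33 relative to TM (adjusted p = 0.00459). These 2 calls held under every alternative tried. TM over HM was 1.17 ± 0.32 and missed the threshold (adjusted p = 0.0754), with TM2, TM6 and TM9 above the highest HM library; DESeq2 (adjusted p = 0.0189) and limma-voom (adjusted p = 0.0497) passed it.

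HOXB4, known in mouse and human for expanding blood stem cells, rested on few reads, with a median of 3 counts per library in PB, 12.5 in TM, 3.5 in HM and 6 in LDM. Its level averaged 0.248 ± 0.151 CPM in PB, 0.891 ± 0.423 in TM, 0.342 ± 0.317 in HM and 0.35 ± 0.216 in LDM (SD, n = 10 each). HOXB4 was higher in TM than in LDM by 1.23 ± 0.45 on the log2 scale (SE, adjusted p = 0.0423), and in PB it fell by 1.57 ± 0.48 relative to TM (adjusted p = 0.0145). Because HOXB4 passed the filter mainly through TM, its TM calls are not independent of the filter. With no filter PB over TM was -1.54 (edgeR, adjusted p = 0.0291). The TM over LDM call was lost without TM6, the highest library, at 1.17 (adjusted p = 0.0655), and with no filter (adjusted p = 0.0665). Of the 10 TM libraries, 7 lay above the highest LDM library.

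HOXB6, a trunk gene of the lateral mesoderm in mouse, had its highest level in TM as well, from 0.0633 through a median of 0.99 to 3.50 CPM, against 0 through 0.393 to 0.533 in PB, 0.117 through 0.245 to 1.59 in HM and 0.0689 through 0.479 to 0.707 in LDM. TM4, TM5 and TM10 were as low as libraries of the other cuts, and 7 of 10 TM libraries lay above the highest PB library. HOXB6 fell by 1.63 ± 0.50 on the log2 scale in PB relative to TM (SE, adjusted p = 0.0166). Since HOXB6 passed the filter mainly through TM, this call is not independent of the filter. The edgeR fit with no filter also made it. Without TM6 that difference was -1.25 (adjusted p = 0.0661), and with limma-voom and sample weights -0.78 (adjusted p = 0.269). TM over LDM was 1.24 ± 0.48 (adjusted p = 0.0557) and TM over HM 1.54 ± 0.49 (adjusted p = 0.131). TM over LDM passed with DESeq2 (1.25, adjusted p = 0.0466) and with upper-quartile scaling (1.31, adjusted p = 0.0478).

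In TM6, which had the highest TM value of HOXB3, HOXB4, HOXB5 and HOXB6, the adipocyte markers summed to 347 CPM (5 of 5 markers present, TM range 46.2 to 347) and the Schwann markers to 260 CPM (4 of 5, TM range 31.3 to 260), the highest TM value of each. Its fibroblast markers summed to 1966 CPM, rank 2 among TM libraries. TM2 and TM9, which with TM6 had the highest TM values of HOXB3, HOXB4 and HOXB5, did not share this. For the fibroblast, adipocyte and Schwann lists, TM2 ranked 10, 8 and 3 in TM (830, 77.5 and 124 CPM). TM9 ranked 6, 4 and 7 (1169, 130 and 47.4 CPM). Across the cuts, the fibroblast list (7 of 7 present) had a median sum of 802 CPM in PB, 1210 in TM, 963 in HM and 745 in LDM, and the median log2 change of its 7 markers in TM over LDM was 0.60. Of these markers 0 passed with edgeR, 3 had an unadjusted p under 0.05, DESeq2 called 1 and limma-voom 0. The 5 endothelium markers were all higher in TM than in LDM, with summed levels of 330 to 797 CPM in TM against 285 to 395 in LDM. All 5 were higher in HM than in LDM too, at 338 to 1038 CPM in HM. The median log2 change of the 5 was 0.62 in TM over LDM and 0.86 in HM over LDM. The Schwann markers had a median sum of 62.2 CPM in TM against 142 in LDM, and 1 of the 4 tested was lower in TM. The median log2 change of these 4 markers in TM over LDM was 0.69, opposite in sign to the change of the sum. The part of these cell types in the HOXB differences was not tested.

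HOXB7, the most 5′ of the HOXB members and a gene of the trunk, passed the test in no pair of cuts. It averaged 0.737 ± 0.468 CPM in PB, 1.09 ± 0.821 in TM, 1.33 ± 0.719 in HM and 1.02 ± 0.363 in LDM (SD, n = 10 each). The difference closest to the threshold was PB over HM at -0.70 ± 0.41 on the log2 scale (SE, adjusted p = 0.209). TM over LDM was -0.05 ± 0.40, with an error that spans both signs. Farther 5′, HOXB8 had 55 counts and HOXB9 271 over all 40 libraries. Of the HOXB9 counts 30 came from PB, 54 from TM, 130 from HM and 57 from LDM, and HOXB9 did not pass the filter either.

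HOXB5, which in mouse helps to set the level of the shoulder girdle, was split between libraries. It held 5 counts over the 10 PB libraries, 232 in TM, 4 in HM and 10 in LDM, so 92.4% of its 251 counts came from TM. Within TM, 3 libraries held 219 of the 232 counts: TM6 with 109, TM2 with 55 and TM9 with 55. The other 7 TM libraries had 0 to 3 counts, as did all PB, HM and LDM libraries. In CPM, TM6 stood at 7.79, TM9 at 3.93 and TM2 at 3.52, against a TM median of 0.152. The filter asks for a minimum CPM in about as many libraries as a cut holds, which a gene counted in 3 libraries does not meet.

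Fitted with edgeR without the filter, which tests 17387 genes, HOXB5 differed between PB and TM (adjusted p = 0.000169), between TM and HM (adjusted p = 0.000802) and between TM and LDM (adjusted p = 0.000355), and these calls held without TM6 (adjusted p = 0.000717, 0.00415 and 0.0019). The size of the change depended on the tool. TM over LDM was 4.32 on the log2 scale with edgeR and 4.46 with DESeq2 (adjusted p = 0.000147), but 1.95 with limma-voom (adjusted p = 0.0333). With limma-voom PB over TM was -2.60 (adjusted p = 0.00268) and TM over HM 2.78 (adjusted p = 0.0188). The mean of 1.61 ± 2.64 CPM in TM (SD, n = 10) describes no single library well, since 7 of 10 lie near the level of the other cuts.

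**Figure D3:**
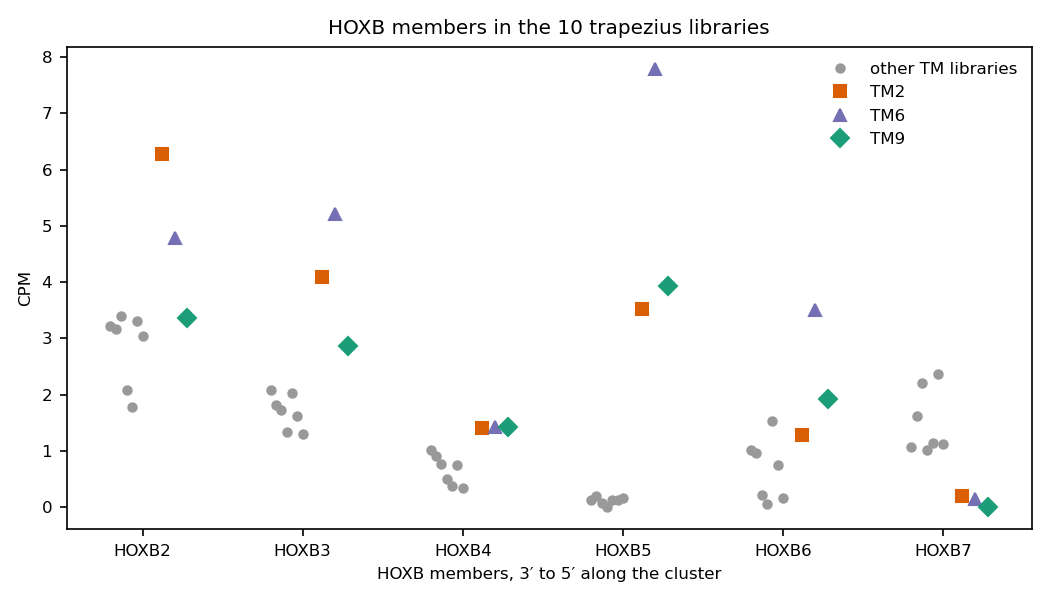
CPM of the 6 HOXB members in the 10 TM libraries, in 3′ to 5′ order, with TM2, TM6 and TM9 marked by shape and colour and the other TM libraries in grey. The 3 marked libraries are the top of HOXB3, HOXB4 and HOXB5 and the bottom of HOXB7.

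The libraries rich in HOXB5 were also at the edge of the TM range for other HOX genes; they were picked out after their values were seen, and no test applies. HOXB7 had 0 counts in TM9, 2 in TM6 and 3 in TM2, the 3 lowest of TM, where the next library had 16. HOXB3 and HOXB4 had their 3 highest TM counts there, at 64, 73 and 40 counts of HOXB3 and 22, 20 and 20 of HOXB4 in TM2, TM6 and TM9. TM2 and TM9, but not TM6, were also nearly free of HOXC genes: HOXC8 had 1 count in each of them and 47 in TM6, and HOXC6 had 12 in TM2, 11 in TM9 and 162 in TM6. HOXA3, the HOXA paralogue of HOXB3, had its highest TM counts in TM2 at 244 and TM9 at 143, with 62 in TM6. As a description over the 10 TM libraries, which share their cut, HOXB3 and HOXB7 had a Pearson correlation of log2 CPM of -0.83. Over all 40 libraries it was -0.10, and -0.02 after the cut means were taken out.

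In the HOXD cluster, HOXD1 and HOXD8 were highest in the longissimus. HOXD1, the 3′ end gene, known in mouse for its role in pain-sensing neurons, ran from 0.0629 through a median of 2.33 to 8.26 CPM in PB, from 0 through 0.476 to 11.9 in TM, from 0 through 1.59 to 10.2 in HM and from 6.99 through 14.0 to 19.2 in LDM. LDM held 67.5% of all its counts. Only 1 library of each other cut reached the lowest LDM library: PB10, TM6 and HM9. TM9, HM2 and 1 further HM library had no HOXD1 count at all. HOXD1 fell by 2.39 ± 0.71 on the log2 scale in PB relative to LDM (SE, adjusted p = 0.0066). It was lower in TM than in LDM by a log2 change of -3.00 ± 0.73 (adjusted p = 0.00227) and lower in HM than in LDM by -2.54 ± 0.71 (adjusted p = 0.00585). These 3 calls held under every alternative tried, over which the change ran from -2.31 to -2.99 in PB, from -2.89 to -4.71 in TM and from -2.45 to -3.87 in HM. PB, TM and HM did not differ from each other beyond their spread. PB over LDM called 1 of the 9 tested members (lower, where 21.2% of all genes tested were lower). TM over LDM called 4 members, 3 higher and 1 lower, against 11.3% of all genes higher and 13.4% lower. The 3 higher include HOXB4, which passed the filter mainly through TM. HM over LDM called 2 members, both lower, against 16% of all genes. The summed Schwann markers (4 of 5 present, none at 0 in a cut) had a median of 47.4 CPM in PB (26.1 to 80.5), 62.2 in TM (31.3 to 260), 76.2 in HM (27.4 to 240) and 142 in LDM (71.5 to 185). The single markers did not all follow this sum. Their median log2 change was -0.93 in PB over LDM, 0.69 in TM over LDM and 0.57 in HM over LDM. In each of these pairs 1 of the 4 was called, lower than in LDM. The summed skeletal muscle markers (6 of 9 present, none at 0 in a cut) had a median of 88209 CPM in PB (73157 to 103057), 96940 in TM (64882 to 125196), 83898 in HM (63735 to 98498) and 70784 in LDM (61528 to 88219). The median log2 change of the 6 markers was 0.76 in PB over LDM, -0.05 in TM over LDM and -0.10 in HM over LDM. PB over LDM called 3 higher and 1 lower, and TM over LDM and HM over LDM each called 2 higher and 1 lower. The part of these cell types in the HOXD1 and HOXD8 differences was not tested.

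HOXD8, a trunk gene and the member with the highest level per length, also had its highest mean and median in LDM. It ran from 5.09 through a median of 23.2 to 109.9 CPM in PB, from 2.30 through 10.8 to 103 in TM, from 1.23 through 18.5 to 53.8 in HM and from 48.2 through 68.3 to 85.4 in LDM. The highest LDM library was 1.77 times the lowest, against 21.6 times in PB, 44.8 times in TM and 43.7 times in HM. The coefficient of variation was 89.1% in PB, 123% in TM, 84.0% in HM and 17.5% in LDM, where genes of a like level (within 1.5-fold) had medians of 24.1%, 23.9%, 26.9% and 21.3%. Of those genes, 2.37% in PB, 0.392% in TM and 2.20% in HM varied more than HOXD8, but 67.5% did in LDM.

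The libraries of PB, TM and HM that reached the LDM range of HOXD8 were PB9, PB10, TM6, TM7 and HM9. HOXD8 was lower in HM than in LDM by a log2 change of -1.83 ± 0.59 (SE, adjusted p = 0.0152). TM over LDM was -1.498 ± 0.58 and just missed the threshold (adjusted p = 0.0541); without TM6 it was -1.96 (adjusted p = 0.013), and it passed with DESeq2 (adjusted p = 0.0336) and limma-voom (0.000312). PB over LDM was -0.85 ± 0.57 (adjusted p = 0.238). TM7 and HM9 are also the libraries whose nearest cut mean was that of LDM. The HM over LDM calls of HOXD1 and HOXD8 held with HM6, HM9, TM3 and TM7 left out.

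**Figure D4:**
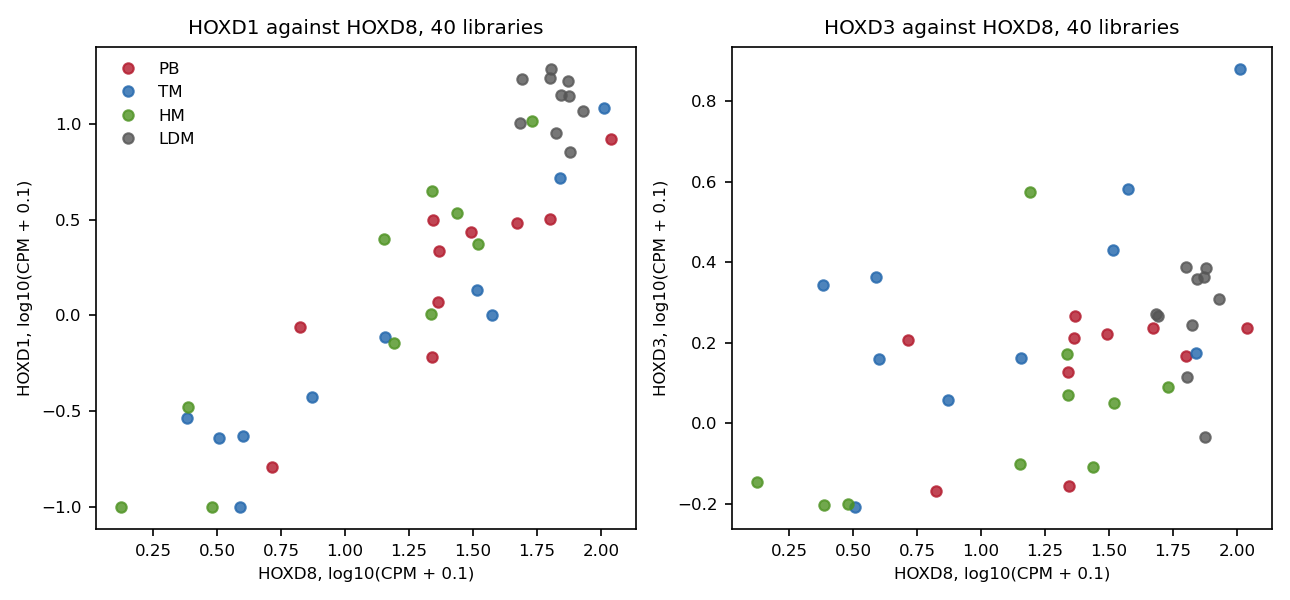
HOXD1 (left) and HOXD3 (right) against HOXD8 in the 40 libraries, each as log10 of CPM plus 0.1 and coloured by cut. HOXD1 climbs with HOXD8 across PB, TM and HM and levels off in LDM, while HOXD3 follows HOXD8 less closely. Over the 40 libraries the Pearson r of log2 CPM with HOXD8 was 0.91 for HOXD1 and 0.47 for HOXD3. For HOXD3 it was 0.46 after the cut means were taken out.

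In PB, TM and HM, but not in LDM, libraries rich in HOXD8 were also rich in HOXD1. As a description with 10 libraries per cut that share their cut, Spearman's rho of their CPM was 0.867 in PB, 0.903 in TM, 0.833 in HM and -0.394 in LDM. HOXD9, the 5′ neighbour of HOXD8 that patterns trunk and limb in mouse and is no member, was the gene most like both among named genes tested, members left out: over 40 libraries its Pearson r of log2 CPM was 0.97 with HOXD8 and 0.92 with HOXD1, and 0.96 and 0.88 after the cut means were taken out. Per length, HOXD8 was a median 2.51 times HOXD9 in PB, 2.36 times in TM, 1.46 times in HM and 2.03 times in LDM, with libraries between 1.11 and 3.75 times. HOXD8 was a median 11.15 times HOXD1 in PB, 18.3 times in TM, 6.94 times in HM and 3.72 times in LDM, over the libraries with HOXD1 reads. Farther 5′, HOXD10 had 177 counts, HOXD11 87 and HOXD13 22 over all libraries.

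Between HOXD1 and HOXD8 lie HOXD3 and HOXD4, which shape the first neck vertebrae in mouse and passed the main edgeR test in no pair of cuts. HOXD3 averaged 1.34 ± 0.419 CPM in PB, 2.38 ± 2.02 in TM, 1.13 ± 0.936 in HM and 1.82 ± 0.50 in LDM (SD, n = 10 each). Its F test passed (adjusted p = 0.0327). HM over LDM came closest at -0.82 ± 0.33 on the log2 scale (SE, adjusted p = 0.0524), with HM6 alone at 3.66 CPM above all LDM libraries. It lay close to the threshold across settings: it passed with DESeq2 (adjusted p = 0.0404), limma-voom (0.0253), the pair alone (0.032) and mitochondrial genes out of the scaling (0.048), and missed with no filter (0.072) and upper-quartile scaling (0.0723). Without HM6 it was -1.08 (adjusted p = 0.010). HM6 had the highest HM sum of the smooth muscle markers, 6943 CPM against an HM median of 740, and of the fibroblast markers, 3710 CPM against a median of 963; the part of those cells in its HOXD3 level was not tested. With HM6, HM9, TM3 and TM7 left out, HOXD3 was also higher in TM than in HM (1.61, adjusted p = 0.00504), lower in PB than in TM (-0.81, adjusted p = 0.0319) and higher in PB than in HM (0.80, adjusted p = 0.0488).

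HOXD4 averaged 0.583 ± 0.528 CPM in PB, 0.806 ± 0.731 in TM, 0.832 ± 0.46 in HM and 1.10 ± 0.456 in LDM (SD, n = 10 each). Its lowest adjusted p for a pair was that of PB over LDM, at -0.84 ± 0.45 on the log2 scale (SE, adjusted p = 0.134). PB10 and TM6, the highest PB and TM libraries of HOXD1 and HOXD8, were also the highest for HOXD4, at 1.76 and 2.64 CPM.

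**Figure D5:**
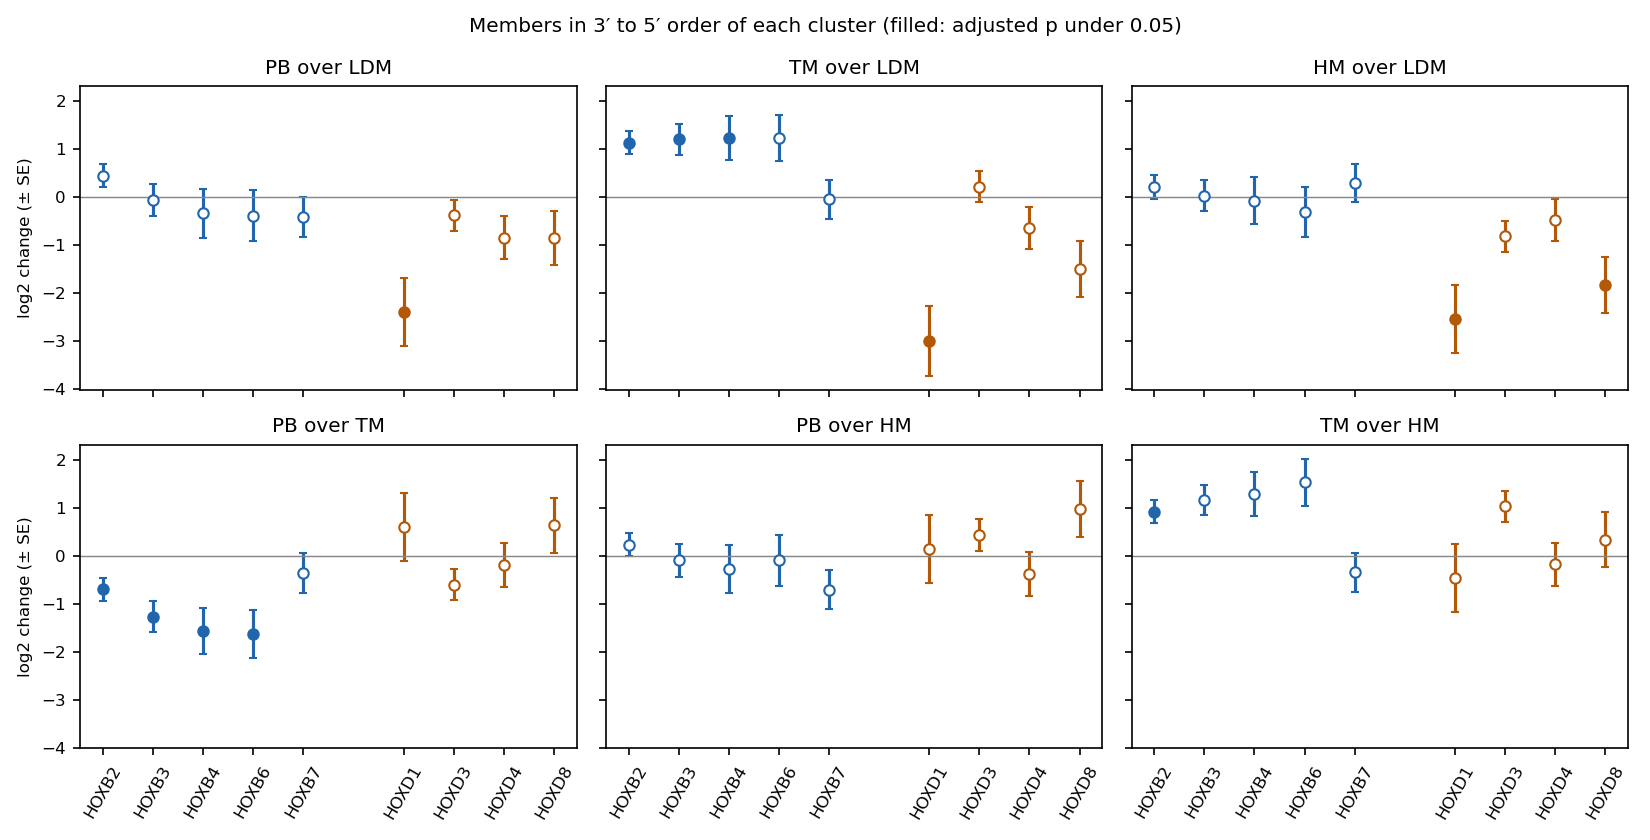
Log2 change with SE of the 9 tested members for each of the 6 pairs of cuts, in 3′ to 5′ order of each cluster (HOXB in blue, HOXD in orange); filled points have an adjusted p under 0.05, and a positive value is higher in the first cut named. HOXB2, HOXB3, HOXB4 and HOXB6 lie near 1 or above in TM over LDM and TM over HM, and HOXD1 lies between -2.39 and -3.00 in each comparison with LDM.

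Along each cluster the changes were not graded evenly. In TM over LDM, the log2 changes of HOXB2, HOXB3, HOXB4 and HOXB6 were 1.14, 1.20, 1.23 and 1.24, and that of HOXB7 -0.05. In the same comparison HOXD1 was at -3.00, HOXD3 at 0.22, HOXD4 at -0.65 and HOXD8 at -1.498. PB over TM called 4 of 9 tested members, all lower and all of the HOXB cluster, where 9.69% of all genes were lower. HOXB4 and HOXB6 are among these 4 and passed the filter mainly through TM. Counts and medians of the 9 members in comparisons with TM are therefore not independent of the filter. TM over HM called HOXB2 alone, where 0.41% of all genes were higher. At an unadjusted p under 0.05 it had 5 of 9 members, HOXB4 and HOXB6 among them. The share of all genes at an unadjusted p was not computed, so counts at that threshold have no background here. PB over HM called 0 of 9 members with edgeR, against 27.6% of all genes in either direction; 0 had an unadjusted p under 0.05, and DESeq2 and limma-voom called 0. The median log2 change of the 9 tested members was 0.22 in TM over LDM, against 0.04 for all genes tested, and 0.92 in TM over HM against -0.02. These comparisons share TM, PB, HM or LDM libraries and are not independent of each other.

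Of the 26 other HOX genes in the table, 14 were tested and all 14 differed among the cuts, where 57.2% of all genes tested did. TM over LDM called 2 of them higher and 6 lower, against 11.3% of all genes higher and 13.4% lower. HM over LDM called 5 higher and 5 lower. It called 3805 of all 11713 genes in either direction, and 16% of all genes lower. HOXD9 was lower than in LDM both in TM (-1.54 ± 0.56 on the log2 scale with its SE, adjusted p = 0.0375) and in HM (-1.62 ± 0.56, adjusted p = 0.0234). The strongest differences lay in the 5′ genes of other clusters. HOXC10 averaged 1.21 CPM in PB and 0.418 in TM, against 26.2 in LDM and 56.2 in HM, its highest cut. Its LDM median was 14.2 CPM, with 1406 of 4135 LDM counts in LDM3. HOXA13 averaged 0.0627 CPM in PB and 0 in TM, against 15.4 in HM. HOXC9 was lower in PB than in LDM (-1.59, adjusted p = 0.00974), HOXA7 higher in PB than in TM (1.90, adjusted p = 0.00506), and HOXA11 averaged 7.22 CPM in HM against 0.0422 in LDM. HOXA10 was called higher in PB than in TM, with 471 of its 853 PB counts in PB10 and 6 of 10 PB libraries at 0, against 1 count in all of TM.

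Of the 9 TALE cofactors, 8 were tested and 7 differed among the cuts (57.2% of all genes tested did), among them PKNOX1, MEIS2, PBX3, MEIS1, MEIS3 and PKNOX2. In TM relative to LDM, PBX3 fell by 1.63 ± 0.33 on the log2 scale (SE, adjusted p = 0.000431), and PKNOX1 fell by 0.67 ± 0.14 (adjusted p = 0.000551). MEIS1 averaged 1.80 CPM in PB, 1.89 in TM, 0.509 in HM and 2.20 in LDM, and was lower in HM than in LDM by -2.18 ± 0.47 (adjusted p = 0.000501). MEIS2 was higher in PB than in LDM by 1.39 ± 0.37 (adjusted p = 0.00251). MEIS3 was higher in HM than in LDM by 0.97 ± 0.27 (adjusted p = 0.00472), and PKNOX2 was lower in PB than in LDM by -0.58 ± 0.19 (adjusted p = 0.0117).

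Among 23 known regulators of HOX clusters, 18 have a name in the table, 13 were tested and 6 differed among the cuts, where 57.2% of all genes tested did. SUZ12, a core subunit of Polycomb repressive complex 2, averaged 10.6 CPM in PB against 4.34 in LDM (log2 change 1.43 ± 0.25, adjusted p = 1.8e-05). KMT2B, a Trithorax-type methyltransferase, fell by 0.53 ± 0.11 on the log2 scale in PB relative to LDM (adjusted p = 0.000221). PCGF2, a Polycomb repressive complex 1 subunit, was the only one of these 3 called in TM over LDM, at -0.59 ± 0.16 (adjusted p = 0.005), and it was also lower in HM than in LDM (-0.63, adjusted p = 0.00214).

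The genes nearest to the outermost members gave mixed results. CALCOCO2, an autophagy receptor gene, starts 2.52 kb beyond HOXB7 in the table and overlaps the 5′ part of the HOXB cluster. It passed the test in no pair of cuts, and neither did MTX2, 70.6 kb beyond HOXD1. CBX1, 445 kb beyond HOXB2, was lower in TM than in LDM (-0.41, adjusted p = 0.00176), lower in HM (-0.38, adjusted p = 0.00244) and lower in PB (-0.27, adjusted p = 0.0228), and ATP5MC1, 246 kb beyond HOXB7, was higher in TM than in LDM by 0.44 (adjusted p = 0.0479). LNPK, beyond the 5′ end of the HOXD cluster, passed the test in PB over HM, of the 6 pairs, (0.50, adjusted p = 0.0214). HNRNPA3 and NFE2L2, 968 and 983 kb beyond HOXD1, were higher in PB than in LDM (0.999 and 1.39). SKAP1, SNX11, TTLL6 and EVX2 did not pass the filter, and EVX2, next to the 5′ end of the HOXD cluster, had 1 count in all.

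By Pearson correlation of log2 CPM over the 40 libraries, which share cuts and depth, the named genes most like HOXB2 were SORD (r = 0.69), GDE1 (0.68) and KLHL36 (0.67). Those most like HOXB3 were CORO2B (0.71), COLGALT2 (0.68) and ALS2CL (0.63), and ALS2CL was also among the 3 nearest to HOXB6 (0.63), after B3GNT8 (0.64). HOXD1 was followed by HOXD9, USH1C (0.85) and BPGM (0.84), and HOXD8 by HOXD9, PDK3 (0.78) and ZYG11B (0.77). For HOXD4 the highest values were those of ABCA8 (0.73), CELSR2 (0.71) and ASB16 (0.70), and for HOXD3 that of TMEM208 (0.60). HOXB4 and HOXB7 reached 0.55 with PIGG and 0.56 with MEX3B. With the cut means taken out, the r of PDK3 with HOXD8 was 0.65 and that of CORO2B with HOXB3 0.64.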

How the data were processed

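The deposited table holds whole-number read counts per gene and FPKM values made by the authors for each library, per the file headers; FPKM equals the count scaled by gene length and library total for 100% of values above 0 (relative tolerance 0.001), so only counts were tested and FPKM gave levels per length. Per the submitters' processing notes the tools were HTSeq 0.9.1, HISAT2 2.0.5 and cutadapt 1.15 and the build Sscrofa11.1, with no roles or settings named; the labels' protocols name Trizol extraction and a stranded KAPA kit. Libraries were grouped by title. There were 0 value columns without a sample and 0 rows naming no gene; 6397 IDs carry no gene name. No libraries were counted as 1 (chi-square per gene within a cut at least 29.8, over genes with 20 or more counts).

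Counts were fitted in edgeR 4.0.16 (R 4.3.3) with TMM scaling, filterByExpr by cut and a robust quasi-likelihood model of all 40 libraries with cut as the only factor, tested by F test and 6 contrasts, with Benjamini-Hochberg adjustment over 11713 genes and a threshold of 0.05. The script was tested on simulated data. Alternatives were DESeq2 1.42.0, limma-voom (limma 3.58.1), other scalings, no filter, a replicate block, each pair of cuts alone, and libraries left out. The unfiltered HOXB5 fits without TM6, with DESeq2 and with limma-voom were added after the data were seen. Correlations were taken on log2 CPM (prior count 2).

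The members and lists were chosen with earlier results of these data known. Named were all 10 members, up to 2 passing other HOX genes per pair of cuts, TALE cofactors that pass the F test, up to 3 regulators by F test, the 3 nearest genes on each side of each cluster, and the 3 genes most like each tested member. A gene that this rule names is not reported here. No sequence or genome was used here.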

Additional observations from a re-analysis of the deposited data

Results flagged for a closer look

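In 10 of 40 gene-by-cut groups the highest library lay apart from the other 9 by more than Dixon's 95% critical share of the group's range, where chance gives about 1 in 20 groups of normally distributed values. These are skewed CPM of low counts, for which that rate need not hold. TM6 accounted for 4 of them. HOXB5 stood at 7.79 CPM in TM6, where the next TM library had 3.93. HOXD1 stood at 11.9 CPM in TM6 against 5.08 in the next, HOXD3 at 7.50 against 3.72, and HOXD4 at 2.64 against 1.46.

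HM6 accounted for 3. HOXB6 stood at 1.59 CPM in HM6 against 0.547 in the next HM library, and HOXD3 at 3.66 against 1.38. HOXB5 stood at 0.138 CPM there, which is 2 counts. PB10 had 8.26 CPM of HOXD1 against 3.10 in the next PB library, and 1.76 CPM of HOXD4 against 0.936. HM9 had 10.2 CPM of HOXD1 against 4.36 in the next HM library. None of these 10 groups was in LDM, and none concerned HOXB2, HOXB3, HOXB4, HOXB7 or HOXD8.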

How the results depend on the processing

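HOXB3 in TM over LDM and PB over TM, HOXB2 in TM over LDM and HOXD1 in its 3 comparisons with LDM stayed past the threshold under every alternative that gave a value. The number of members called moved as follows, with calls over all genes in brackets. PB over LDM called 2 with limma-voom (4828, main fit 4880). PB over HM called 1 with HM6, HM9, TM3 and TM7 left out (3182, main fit 3232). PB over TM called 1 with the pair alone (2330, main fit 2706). TM over HM called 90 of all genes in the main fit. It called 2 members with DESeq2 (199) and 2 with limma-voom (312). With those 4 libraries left out it called 2 (117), and with the pair alone 0 (74). Smaller moves were HM over LDM at 3 members with DESeq2, limma-voom, the pair alone, mitochondrial genes out of the scaling and the 4 libraries left out, TM over LDM at 6 with DESeq2 and 5 with limma-voom and upper-quartile scaling, PB over TM at 3 without PB1, and the F test at 8 with no filter, which tests HOXB5, and at 6 with limma-voom and with the 4 libraries left out, where HOXB6 is untested. HOXB4 and HOXB6 did not pass the filter in some of these smaller fits and have no value there. Calls over all genes moved as well. HM over LDM called 3805 genes in the main fit, 4041 with DESeq2, 4533 with limma-voom and 3533 with the pair alone. TM over LDM called 2898 in the main fit, 3162 with DESeq2, 3598 with limma-voom and 2830 with upper-quartile scaling. HOXB2 in PB over TM missed the threshold with no filter (adjusted p = 0.0513) and with the pair alone (0.0585), and in TM over HM with no filter (0.0627) and with the pair alone (0.0921). HOXD8 passed in TM over LDM with the pair alone (0.0448), and with limma-voom in PB over LDM (-1.20, 0.048) and PB over TM (1.43, 0.047). The cause of these changes was not tested.

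Small uncalled log2 changes changed sign. With the highest library left out, HOXB3 was at -0.060 in HM over LDM, 0.055 in PB over HM and 0.091 in PB over LDM, HOXB4 at 0.026 and HOXB6 at 0.44 in PB over HM, HOXD3 at -0.10 in TM over LDM, HOXD4 at 0.22 in PB over TM and HOXD8 at -0.15 in TM over HM. With limma-voom, HOXB3 was at 0.16 and HOXB6 at 0.00096 in PB over LDM, HOXB4 at 0.049 in HM over LDM, HOXB6 at 0.41 in PB over HM, HOXB7 at 0.22 in PB over TM, HOXD3 at -0.036 in TM over LDM and HOXD8 at -0.24 in TM over HM. With the 4 libraries left out, HOXB3 was at -0.054 in HM over LDM and 0.015 in PB over HM. HOXB3 in PB over LDM was at 0.017 with mitochondrial genes out of the scaling, and HOXB7 in TM over LDM at 0.0072 with upper-quartile scaling.

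Libraries of the same number correlated by -0.13 to 0.51 (median 0.24) in their deviations from the cut means, with 52 of 60 pairs over 0.1, and 61 of 120 comparisons of a library with another cut were highest for its own number, as a hint from the data and not the design. Not every pair was over 0.1 and the labels tie no number to a pig, so the fit reported has no block. With the replicate block, TM over LDM called 5 members and HM over LDM 3, where HOXD8 in TM over LDM was at -1.81 and HOXD3 in HM over LDM at -0.92, and HOXB6 in PB over HM was at 0.035. Over all genes, TM over LDM called 3584 with the block and 2898 without it, and HM over LDM 4394 and 3805. Depth limits HOXB4, HOXB5 and HOXB6, whose libraries outside TM hold few counts.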

Other observations

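For 3 5′ HOX genes that are no members, chosen here after their values were seen, the LDM counts came largely from LDM4. HOXD10 had 76 of its 108 LDM counts in LDM4, HOXD11 25 of 41 and HOXA10 156 of 291, with LDM medians of 1, 0 and 1 counts. The same library had the highest LDM level of HOXD1, 19.2 CPM. In PB, HOXA10 had 471 of 853 counts in PB10, which also held the highest PB values of HOXD1, HOXD4 and HOXD8, while 6 of 10 PB libraries had no HOXA10 count.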
